A study of Mus musculus with 9 samples.

Results

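Transcripts that mark fat cells were followed in fetal ovaries carried under the kidney capsule of male mice, and they were examined array by array because the pair of arrays from the latest grafts differed widely in them. The genes, Adipoq, Fabp4, Plin1, Cfd, Lep, Cidec, Retn, Pparg, Lpl and Ucp1, were chosen by name after their levels in the day 20 grafts were known, so those levels are given here as a description. Of these 10 genes, 9 had a probe set annotated to them alone, with 13 probe sets in all, out of 18388 genes and 45101 probe sets on the array. The brightest probe set of a gene by its mean over the 9 arrays was taken, and the others served as a check. No probe set was named for Plin1, which was not analysed here, and the probe set of Cfd was named through the probe and symbol columns of the study's own supplementary tables.

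The grafts were XX ovaries of 13 dpc, taken without the mesonephros from embryos whose mothers had been pretreated with busulfan to remove germ cells. They were recovered 4, 7, 10, 15 or 20 days after transfer into intact XY nude hosts (BALB/c, nu/nu, 8 weeks old), and ovaries of the same age that had not been grafted made up day 0. The labels give the ICR strain for the ovaries, while the methods name C57BL/6 and ICR females. Each Affymetrix GeneChip mouse genome array of a graft stage measured RNA pooled from approximately 10 grafts, with 1 array each on days 4, 7 and 15 and 2 arrays each on days 0, 10 and 20. All groups, day 0 included, shared the exposure to busulfan before birth, the hosts were athymic, and no array of host fat or host kidney was used here.

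Adipocytes store triglyceride in a large lipid droplet and release hormones such as adiponectin and leptin. PPARG, a nuclear receptor that works together with C/EBP proteins, switches on many of the genes of the mature fat cell. White fat surrounds the kidney and the ovary, and brown fat burns lipid through the uncoupling protein UCP1. PPARG and lipoprotein lipase are also made outside fat, among others by macrophages, and PPARG is found in granulosa cells of the ovary.

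The windows before the transcription starts of 4 genes are shown because they stand for the patterns described below. They are Adipoq and Cfd, with the largest rise on 1 of the day 20 arrays, Cidec, high on that array alone, and Pparg, high on both. Each window holds the 250 bases before a RefSeq start (GRCm38.p6), with the exact matches to the motifs searched, on either strand, in capitals.
Adipoq, chr16:23146286-23146535, plus strand: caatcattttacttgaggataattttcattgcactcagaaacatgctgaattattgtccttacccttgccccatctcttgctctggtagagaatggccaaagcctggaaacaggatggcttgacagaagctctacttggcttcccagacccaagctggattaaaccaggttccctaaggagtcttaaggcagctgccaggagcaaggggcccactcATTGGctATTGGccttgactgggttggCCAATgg
Cfd, chr10:79890603-79890852, plus strand: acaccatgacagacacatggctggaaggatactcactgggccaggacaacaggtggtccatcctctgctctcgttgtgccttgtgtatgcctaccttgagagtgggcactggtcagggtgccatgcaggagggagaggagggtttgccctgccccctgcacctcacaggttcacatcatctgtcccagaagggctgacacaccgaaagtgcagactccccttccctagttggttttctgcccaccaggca
Cidec, chr6:113434765-113435014, minus strand: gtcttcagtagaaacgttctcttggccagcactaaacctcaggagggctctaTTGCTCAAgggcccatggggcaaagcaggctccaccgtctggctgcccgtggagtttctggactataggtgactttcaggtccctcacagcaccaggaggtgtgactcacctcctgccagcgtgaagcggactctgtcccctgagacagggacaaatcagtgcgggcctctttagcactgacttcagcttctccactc
Pparg, chr6:115421816-115422065, plus strand: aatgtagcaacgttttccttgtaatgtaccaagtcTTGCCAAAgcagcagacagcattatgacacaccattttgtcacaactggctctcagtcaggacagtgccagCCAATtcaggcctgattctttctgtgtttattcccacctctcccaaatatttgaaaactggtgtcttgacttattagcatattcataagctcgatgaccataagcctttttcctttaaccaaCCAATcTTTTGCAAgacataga
The motifs were the half-site of nuclear receptors (AGGTCA), a C/EBP motif (TTGCNNAA), the TATA box (TATAAA) and the CCAAT box (CCAAT), and no match in these windows overlapped another. RefSeq gave 3 windows for Pparg and 2 for Cidec, of which the single window of each with a C/EBP motif was printed. In the windows printed, Adipoq had 3 CCAAT boxes, Pparg had 2 together with 2 C/EBP motifs, Cidec had 1 C/EBP motif, and Cfd had no match. The other 2 Pparg windows each held a half-site, 1 of them together with a TATA box and a CCAAT box, and the other Cidec window held no match. The RefSeq table held 11 windows of 8 of the 10 genes, without Fabp4 and Lpl. Among those 11 windows the half-site was found in 3, the C/EBP motif in 4, the TATA box in 1 and the CCAAT box in 3. Of all 32851 windows, 14.0% held the half-site, 9.6% the C/EBP motif, 12.4% the TATA box and 33.8% the CCAAT box. These matches describe letters only and were not tested as binding sites.

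All values below are log2 intensities as deposited, for which no call of signal over background was given. The 25th percentile of all values was 4.82, and the median of each array lay between 6.49 and 6.63. The SD of the difference between duplicates, taken across every probe set, was 0.697 on day 20, 0.343 on day 10 and 0.447 on day 0. The intensity of a probe set is not on a common scale with that of another gene, so a single gene is compared only with itself. Sums over a list are led by its brightest probe sets, and each sum is compared only between arrays. Where all graft arrays of a gene are said to lie above day 0, the share of all probe sets doing so was not counted. In a pooled tissue, a change in the number of cells of a type cannot be told apart from a change in RNA per cell.

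Adiponectin, the product of Adipoq, is made almost only by fat cells. Its log2 intensity was 4.68 and 4.59 on the day 0 arrays, 5.74 on day 4, 5.96 on day 7, 6.25 and 5.09 on the day 10 arrays, 6.01 on day 15, 11.18 on replicate 1 of day 20 and 6.59 on replicate 2. All 7 graft arrays stood above both day 0 arrays, and day 20 replicate 1 stood far above the rest. It exceeded the day 0 mean 93.7-fold on replicate 1 of day 20 and 3.88-fold on replicate 2, so that the duplicates of this day differed 24.1-fold.

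Cfd encodes adipsin, a serine protease of the complement system that white fat secretes. Cfd read 4.66 and 4.81 on day 0, 6.60 on day 4, 7.01 on day 7, 7.35 and 5.24 on day 10, 7.49 on day 15, 11.97 on replicate 1 of day 20 and 8.18 on replicate 2. Here too each graft array lay above both day 0 arrays, and the second highest value belonged to the other day 20 array. Relative to the day 0 mean, Cfd was 151-fold higher on replicate 1 of day 20 and 10.9-fold higher on replicate 2.

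Fabp4, the fatty acid carrier of adipocytes that macrophages and capillary endothelium also make, had values of 7.62 and 8.27 on day 0, 9.37 on day 4, 9.65 on day 7, 9.34 and 9.70 on day 10, 9.81 on day 15, 12.39 on replicate 1 of day 20 and 10.03 on replicate 2. The grafts and the day 0 ovaries did not overlap, and the 6 graft arrays other than day 20 replicate 1 stayed within a narrow band. The excess over day 0 was 21.9-fold on replicate 1 of day 20 and 4.24-fold on replicate 2. Of its 3 other probe sets, the next brightest gave 18.9-fold and 4.16-fold for the same arrays, another gave 4.31-fold and 1.72-fold, and the dimmest, which carried an identical value on 5 arrays, gave 2.21-fold and 0.963-fold.

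Cidec and Retn stood apart on day 20 replicate 1 alone. Cidec, whose protein enlarges the lipid droplet of white adipocytes, read 4.25 and 4.22 on day 0, 4.18 on day 4, 4.30 on day 7, 4.35 and 4.07 on day 10, 4.30 on day 15, 7.44 on replicate 1 of day 20 and 4.30 on replicate 2. The 8 arrays other than day 20 replicate 1 were all below the 25th percentile of all values. Retn, which encodes the hormone resistin, a product of white adipocytes in mice, read 6.98 and 7.08 on day 0, 6.62 on day 4, 6.92 on day 7, 6.91 and 6.41 on day 10, 6.80 on day 15, 9.54 on replicate 1 of day 20 and 6.96 on replicate 2. Apart from day 20 replicate 1, no graft array exceeded the day 0 arrays. The duplicates of day 20 differed 8.83-fold for Cidec and 6.0-fold for Retn.

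Lep, the gene of the satiety hormone leptin, stayed within 1 log2 unit over all arrays. Its values were 4.71 and 4.79 on day 0, 4.69 on day 4, 4.63 on day 7, 5.04 and 4.59 on day 10, 4.64 on day 15, 5.42 on replicate 1 of day 20 and 4.57 on replicate 2. Day 20 replicate 1 was again the highest array, 1.80-fold above its duplicate, 1 of the day 10 arrays was the next highest, and the other 5 graft arrays were just below both day 0 arrays.

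Pparg and Lpl behaved otherwise. Pparg read 4.95 and 5.58 on day 0, 6.28 on day 4, 6.73 on day 7, 7.84 and 8.14 on day 10, 8.48 on day 15, 7.74 on replicate 1 of day 20 and 8.88 on replicate 2, so that it was lower on the array where adiponectin was highest. It was the only member with a day 20 replicate 1 value below that of its duplicate, at 0.454-fold. Lpl, which encodes the lipase that frees fatty acids from lipoproteins at the vessel wall, read 11.22 and 11.10 on day 0, 12.70 on day 4, 12.69 on day 7, 12.56 and 12.47 on day 10, 12.38 on day 15, 12.86 on replicate 1 of day 20 and 12.66 on replicate 2. Lpl had reached its later level by day 4, and all 7 graft arrays lay above day 0 within a range of less than a factor of 2.

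Genes of granulosa cells, which surround the oocyte in growing follicles, were also high in the grafts. On day 20 replicate 1, 5 of the 7 measured were lower than on its duplicate. The other 2 were higher, where 20781 of all 45101 probe sets were. The median difference from day 0 over the 7 genes was 1.63 on day 4, 1.78 on day 7, 2.98 and 2.78 on day 10, 3.17 on day 15, 2.65 on replicate 1 of day 20 and 3.37 on replicate 2. Their summed intensity ranged between 7126 and 19921 on the 7 graft arrays, against 1571 and 1352 on day 0. Inha, which encodes the alpha subunit of inhibin, read 12.65 on replicate 1 of day 20 and 13.37 on replicate 2, against 10.17 and 9.82 on day 0, whereas Amh, the gene of the anti-Müllerian hormone, stayed between 6.73 and 7.34 on all arrays. The part of granulosa cells in the levels of Pparg was not tested.

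Ucp1, the brown fat uncoupler, read 7.05 and 4.81 on day 0, 4.82 on day 4, 5.19 on day 7, 4.82 and 4.77 on day 10, 4.82 on day 15, 4.68 on replicate 1 of day 20 and 4.41 on replicate 2. Its high value came from a single day 0 array, and the other day 0 array was within the range of the grafts. Both day 20 arrays were below every other array.

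**Figure D1:**
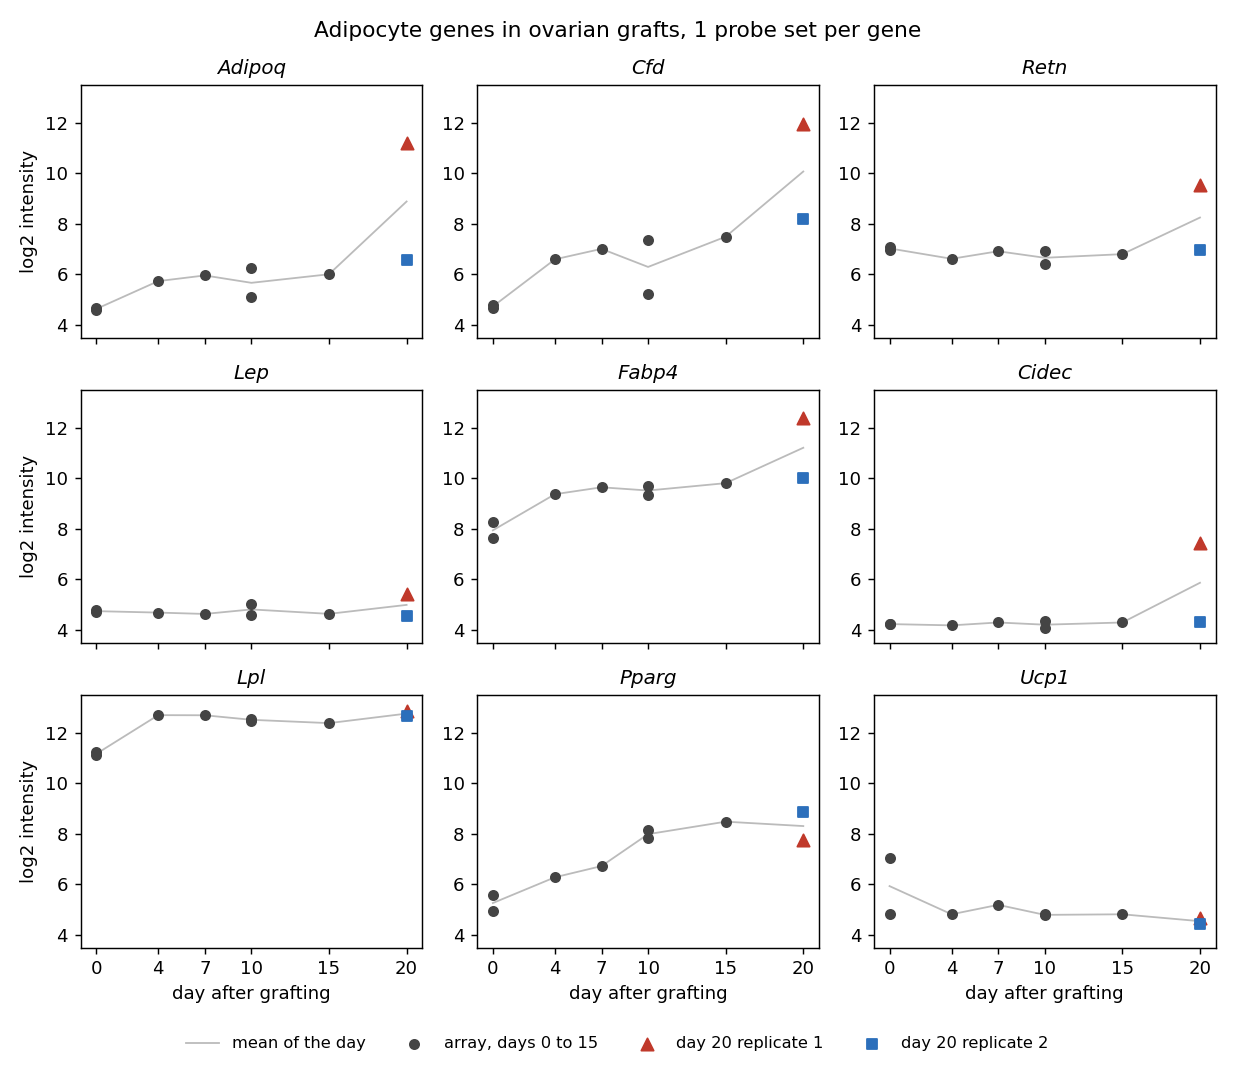
Log2 intensity (vertical axis) of the 9 adipocyte genes against day after grafting (horizontal axis), with 1 point per array, a grey line through the daily means, day 20 replicate 1 as a red triangle and day 20 replicate 2 as a blue square. Day 20 replicate 1 is the highest array for Adipoq, Cfd, Fabp4, Cidec and Retn, and by a small margin for Lep and Lpl. Adipoq, Cfd, Fabp4, Pparg and Lpl lie above both day 0 arrays on all graft arrays. How many of all probe sets did so was not counted.

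The duplicates of day 20 were then set against each other without a test, since each is a single array. On day 20 replicate 1, 8 of the 9 genes were above their value on day 20 replicate 2, where 20781 of all 45101 probe sets were. More than 2-fold above it were 5 genes, namely Adipoq, Cfd, Cidec, Retn and Fabp4, where 4.06% of all probe sets were. The median difference was 2.37 over the 9 genes and -0.03 over all probe sets. Ranked among all probe sets by this difference, Adipoq was number 140 and Cfd number 211, followed by Cidec at 292, Retn at 393 and Fabp4 at 457. More than 2-fold above the day 0 mean were 7 of 9 genes on day 20 replicate 1, where 9.45% of all probe sets were, and 5 of 9 on day 20 replicate 2, where 7.61% were. The 5 genes of day 20 replicate 2 were Adipoq, Cfd, Fabp4, Pparg and Lpl. These counts and ranks are a description only, because the genes were proposed with their day 20 levels known.

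**Figure D2:**
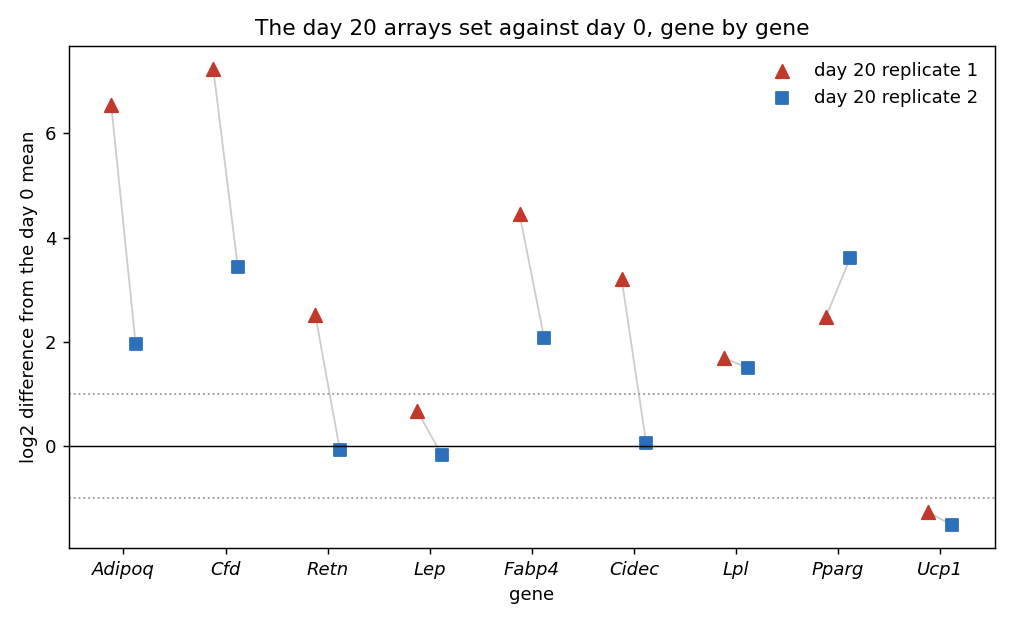
Log2 difference from the day 0 mean (vertical axis) for each adipocyte gene (horizontal axis) on day 20 replicate 1 (red triangles) and day 20 replicate 2 (blue squares), with dotted lines at a 2-fold change either way. Cfd stands at 7.24 and 3.44 and Adipoq at 6.55 and 1.96, while Lpl stands at 1.70 and 1.49 and Pparg at 2.48 and 3.62.

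The same 5 genes, Adipoq, Cfd, Fabp4, Pparg and Lpl, were already more than 2-fold above the day 0 mean on the single arrays of days 4, 7 and 15. This was 5 of 9 genes each time, against 4.15% of all probe sets on day 4, 6.23% on day 7 and 6.49% on day 15. The median difference from day 0 over the 9 genes was 1.02 on day 4, 1.33 on day 7 and 1.22 on day 15, and over all probe sets it was -0.06, -0.08 and -0.09. No test was made for these days, which have 1 array each.

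Day 10 against day 0 asks which of these genes had changed in the grafts before the latest stage. A model across all probe sets (limma, 1 mean per day, Benjamini-Hochberg adjustment) was read at an adjusted p below 0.05 together with a difference above 2-fold, which is what called stands for here. On day 10, 2 of 9 genes were called higher, where 2.87% of all probe sets were, and none was called lower (none at an unadjusted p below 0.05 either), where 1.33% were. Lpl averaged 1.35 ± 0.16 (SE, n = 2 each) higher on the log2 scale in day 10 grafts than in day 0 ovaries, a 2.55-fold rise with an adjusted p of 0.014 in limma, and its other probe set rose by 1.53 ± 0.17 (adjusted p = 0.0113). Pparg rose by 2.73 ± 0.42, which is 6.62-fold, with an adjusted p of 0.0286. Both genes had 2 of 2 day 10 arrays above 2 of 2 day 0 arrays, as did the uncalled Adipoq, Cfd and Fabp4. The share of all probe sets that separated in this way was not counted. Neither call was kept when either array of day 10 or of day 0 was left out, where the adjusted p lay between 0.0725 and 0.139 for Lpl and between 0.106 and 0.226 for Pparg, and the call of Pparg was also lost (adjusted p = 0.124) with low values raised to the 25th percentile.

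The other 7 genes did not pass on day 10. The log2 change was 1.58 ± 0.75 for Fabp4 (adjusted p = 0.308), 1.56 ± 1.30 for Cfd (adjusted p = 0.55) and 1.04 ± 1.41 for Adipoq (adjusted p = 0.73) in the limma fit. The wide errors of Cfd and Adipoq take in the spread between the day 20 arrays, because all days share 1 estimate of the spread. Without either day 20 array Fabp4 passed as well, with an adjusted p of 0.0429. Ucp1 changed by -1.14 ± 0.68, Retn by -0.37 ± 0.79, Lep by 0.07 ± 0.32 and Cidec by -0.03 ± 0.95, none of which passed. With day 0 replicate 2 left out, Ucp1 alone was called, as lower, against the single day 0 array on which it was high.

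The day 10 duplicates also differed in Cfd and Adipoq. Cfd was 2.11 and Adipoq 1.15 higher on the log2 scale on day 10 replicate 1 than on day 10 replicate 2, so that 2 of 9 genes were more than 2-fold higher there, where 0.129% of all probe sets (58 of them) were. In the ranking of all probe sets by this difference Cfd was number 6 and Adipoq number 31. Retn was higher by 0.50, Lep by 0.45 and Cidec by 0.28, whereas Fabp4 differed by -0.36 and Pparg by -0.30. In the other lists of fat cell genes, described below, no gene was more than 2-fold higher on day 10 replicate 1. Only Nrg4 of those lists was more than 2-fold lower there, with a difference of -1.89. Proximal tubule genes of the kidney ran the other way on day 10. All 10 were lower on day 10 replicate 1, with a median difference of -0.86, and all 10 were higher on day 20 replicate 1, with a median difference of 6.17. The 8 genes of the loop of Henle and distal nephron had a median difference of -0.06 on day 10, with 2 of 8 higher on replicate 1, and of 3.82 on day 20, with all 8 higher. The 58 probe sets were not of fat alone, and those named here were picked out after their values were seen. Klk1, a kallikrein of kidney and salivary gland, read 6.59 on replicate 1 of day 10 and 5.54 on replicate 2, and 12.83 and 8.63 on these replicates of day 20. Mmp12, the macrophage elastase, read 8.68 on replicate 1 of day 10 and 6.51 on replicate 2, below its 10.52 on day 4. Car3, the carbonic anhydrase of adipocytes and muscle, read 8.53 and 9.10 on day 0, 8.24 on day 4, 8.66 on day 7, 10.01 and 8.51 on day 10, 9.40 on day 15, 13.56 on replicate 1 of day 20 and 11.16 on replicate 2.

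**Figure D3:**
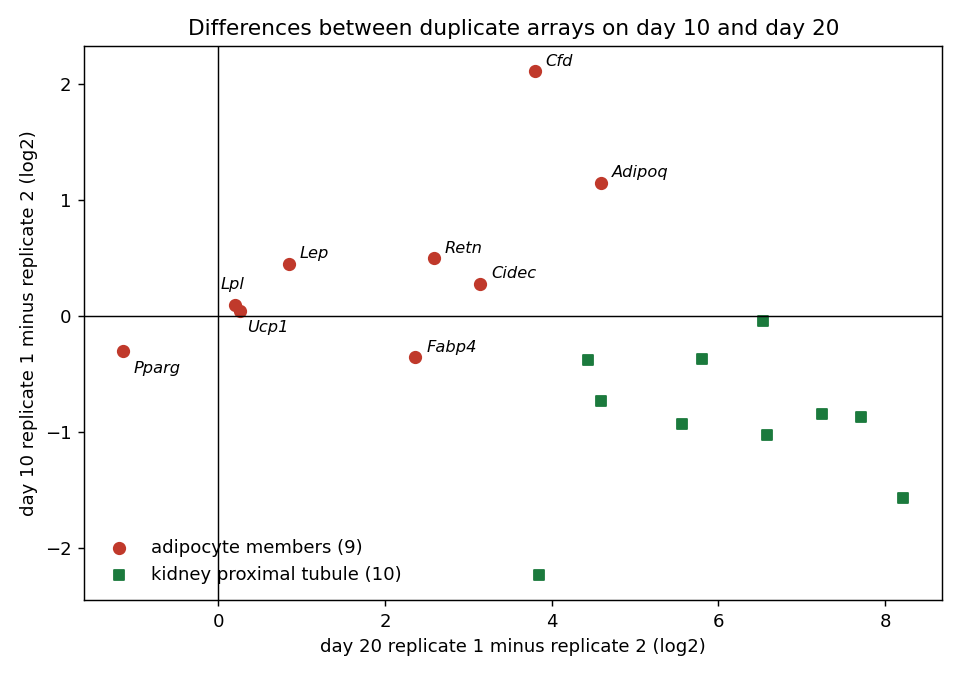
Log2 difference between the duplicate arrays (replicate 1 minus replicate 2) on day 20 (horizontal axis) and on day 10 (vertical axis) for the 9 adipocyte genes (red circles) and 10 kidney proximal tubule genes (green squares). Cfd and Adipoq are higher on replicate 1 on both days, whereas all 10 proximal tubule genes are higher on replicate 1 on day 20 and lower on it on day 10.

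For day 20 against day 0, the same fit called 2 of 9 genes higher, Pparg and Lpl, where 4.52% of all probe sets were, and none lower (none at an unadjusted p below 0.05 either), where 3.10% were. Nothing is read from this count, because the genes were proposed with their day 20 levels known. The mean change was 3.05 for Pparg and 1.60 for Lpl on the log2 scale, and it was larger but uncalled for Cfd at 5.34, Adipoq at 4.25 and Fabp4 at 3.27. The count rested on single arrays. Without day 20 replicate 2, 7 of 9 genes were called (all but Lep and Ucp1) and 3144 probe sets were called higher overall. Without day 20 replicate 1, 3 of 9 were called, Pparg, Lpl and Fabp4, and 2116 probe sets were called higher overall. Leaving out any single array of day 10 or day 0 left 1 call, Lpl or, without day 0 replicate 2, Ucp1 as lower.

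Other genes of the fat cell were counted from lists by role. For comparison with each count, 4.20% of all probe sets were called in either direction on day 10 and 7.61% on day 20. Among lipid droplet and lipolysis genes, 1 of 10 passed on day 10 and on day 20, namely Mgll, the monoglyceride lipase, which rose by 1.43 ± 0.20 on day 10 (adjusted p = 0.0213) and 1.71 ± 0.20 on day 20 (adjusted p = 0.00907). Plin4, a coat protein of the adipocyte droplet, read 6.62 on day 20 replicate 1 and between 4.94 and 5.17 on the other 8 arrays. Plin2, the droplet coat protein of most cells, read 11.21 on replicate 1 of day 20 and 11.93 on replicate 2, both within 1 log2 unit of the day 0 values of 11.78 and 11.91. The median change of this list was 0.20 on day 10 and 0.25 on day 20, beside -0.09 and -0.11 for all probe sets.

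Most genes of fatty acid and triglyceride synthesis did not pass. On each day 1 of 16 was called, Gpam, the enzyme of the opening step of glycerolipid synthesis, which rose by 1.19 ± 0.17 on day 10 (adjusted p = 0.0244) and by 1.09 ± 0.17 on day 20 (adjusted p = 0.0205). Fasn, the fatty acid synthase, read 10.39 on replicate 1 of day 20 and 10.44 on replicate 2, against 10.38 and 10.61 on day 0. On day 20 replicate 1, 5 of the 16 genes were more than 2-fold above day 20 replicate 2, and these were Thrsp, Dgat2, Scd1, Mlxipl and Gpat3, named after their values were seen. Without day 20 replicate 2, 5 of the 16 genes passed on day 20.

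Among genes of fatty acid uptake and handling, 1 of 8 measured passed on day 10 and 2 of 8 on day 20, all higher. Cd36, a fatty acid transporter of adipocytes, macrophages and endothelium, read 6.93 and 7.54 on day 0, 9.04 on day 4, 9.08 on day 7, 8.81 and 9.37 on day 10, 8.86 on day 15, 10.74 on replicate 1 of day 20 and 9.09 on replicate 2. All 7 graft arrays lay above both day 0 arrays and day 20 replicate 1 was the highest, with a mean change of 2.68 ± 0.57 on day 20 (adjusted p = 0.0435). Gpihbp1, which anchors LPL to capillaries, rose by 1.37 ± 0.25 on day 10 (adjusted p = 0.0431) and 1.22 ± 0.25 on day 20 (adjusted p = 0.0402). No gene of the list was called on day 20 without day 20 replicate 1, under quantile normalization or with array weights, and none on day 10 under quantile normalization or with a replicate block, whereas 5 were called on day 20 without day 20 replicate 2. Gpd1, which makes glycerol phosphate and was named after its values were seen, read 8.99 on replicate 1 of day 20 and 5.65 on replicate 2.

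Of 8 other adipocyte hormones and secreted proteins, 4 passed on day 10 and 2 on day 20, all higher. Rbp4, the carrier of retinol in blood, rose by 2.04 ± 0.18 on day 10 (adjusted p = 0.00694) and 2.56 ± 0.18 on day 20 (adjusted p = 0.00282), and read 9.08 on replicate 1 of day 20 and 8.96 on replicate 2. Agt, the angiotensin precursor, rose by 1.79 ± 0.24 on day 10 (adjusted p = 0.019) and 2.29 ± 0.24 on day 20 (adjusted p = 0.00666). No gene of this list differed more than 2-fold between the day 20 arrays. None of 11 measured genes of insulin and catecholamine response passed on either day in limma, while 3 on day 10 and 4 on day 20 had an unadjusted p below 0.05. Slc2a4, the insulin-responsive glucose transporter, read 7.34 on replicate 1 of day 20 and 7.24 on replicate 2, against 7.84 and 7.88 on day 0, and Insr, the insulin receptor, changed by 0.79 ± 0.14 on day 20, less than 2-fold (adjusted p = 0.03).

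Adipogenic transcription factors other than Pparg passed higher for 2 of 12 genes on day 10 and 3 of 12 on day 20. Klf15, a glucocorticoid-induced factor, rose by 1.5 ± 0.25 on day 10 (adjusted p = 0.0356) and 2.67 ± 0.25 on day 20 (adjusted p = 0.00518). Cebpa, the partner of Pparg in fat cell differentiation, had a change of 0.85 ± 0.19 on day 10, which did not pass (adjusted p = 0.0745), and rose by 1.38 ± 0.19 on day 20 (adjusted p = 0.0143). It read 7.50 on replicate 1 of day 20 and 7.35 on replicate 2, close to its 7.63 on day 4. Ebf1, a factor of fat and B cells, rose by 1.62 ± 0.21 on day 10 (adjusted p = 0.0188) and 1.38 ± 0.21 on day 20 (adjusted p = 0.0198).

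Of 11 brown and beige fat genes, 1 passed higher and 1 lower on both days. Dio2, the deiodinase that activates thyroid hormone, rose by 3.59 ± 0.42 on day 10 (adjusted p = 0.0131) and 4.06 ± 0.42 on day 20 (adjusted p = 0.00641), and Cox7a1, a subunit of cytochrome oxidase in muscle and brown fat, fell by 1.33 ± 0.19 on day 10 (adjusted p = 0.0239) and 1.30 ± 0.19 on day 20 (adjusted p = 0.0173). The median of the list, 0.06 on day 10 and 0.00 on day 20, was near that of all probe sets.

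Of 10 preadipocyte and fat progenitor genes, 4 were already more than 2-fold above day 0 on the day 4 array. On day 10, 4 of 10 passed, all higher, and on day 20, 4 passed higher and 1 lower, with a total of 5 calls also without day 20 replicate 1. Ly6a, the Sca-1 antigen of progenitors, endothelium and leukocytes, read 6.16 and 6.66 on day 0, 12.41 on day 4, 12.68 on day 7, 10.77 and 10.99 on day 10, 10.31 on day 15, 13.65 on replicate 1 of day 20 and 11.01 on replicate 2. Pi16, a marker of adventitial fibroblasts, rose by 2.95 ± 0.29 on day 10 (adjusted p = 0.0083) and 2.78 ± 0.29 on day 20 (adjusted p = 0.00657). Cd34, of progenitors and endothelium, rose by 2.67 ± 0.19 on day 10 (adjusted p = 0.00458) and 2.27 ± 0.19 on day 20 (adjusted p = 0.00392). Dlk1, which preadipocytes and fetal stroma make and which falls as fat cells mature, fell by 2.54 ± 0.38 on day 20 (adjusted p = 0.0178), with 8.97 on replicate 1 of day 20 and 8.05 on replicate 2 against 11.40 and 10.69 on day 0. Over these 8 lists of 83 genes together, 15 genes were called on day 10, where 4.20% of all probe sets were in either direction, and 16 on day 20, where 7.61% were. With low values raised to the 25th percentile, 3 were called on day 10 and 5 on day 20, and with a replicate block 9 were called on day 10. With only the arrays of the days compared, 9 were called on day 20. Leaving out 1 array of day 0 left 2 calls (without replicate 1) or 1 (without replicate 2) on day 10, and 3 or 5 calls on day 20. Leaving out either day 10 array left none on day 10 and 9 on day 20, and the day 20 count was 15 without day 20 replicate 1 and 30 without day 20 replicate 2.

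Markers of other cells moved along with the fat genes on day 20 replicate 1. The summed intensity of 10 proximal tubule genes was 48705 on replicate 1 of day 20 and 1338 on replicate 2, between 434 and 1827 in the grafts of days 4 to 15, and 496 and 557 on day 0. All 10 were more than 2-fold above day 0 on replicate 1 of day 20, whereas on replicate 2 only Miox, the inositol oxygenase of the tubule, was. Miox, which the paper also lists as a Sertoli cell-specific gene, read 5.43 and 5.58 on day 0 and 7.96 and 10.19 on day 10. It read 10.0 on day 15 and 9.86 on day 20 replicate 2. On the arrays of day 10 replicate 2, day 15 and day 20 replicate 2, most of the sum came from Miox. Slc34a1, the phosphate carrier of the proximal tubule, read 11.52 on replicate 1 of day 20 and 4.93 on replicate 2, against 5.0 and 5.11 on day 0. Umod, the uromodulin of the loop of Henle, read 11.69 on replicate 1 of day 20 and 3.78 on replicate 2. The 8 genes of the distal nephron summed to 18443 and 499 on these arrays, against 1815 and 2248 on day 0. Calb1 of this list read 10.51 and 10.87 on day 0, 11.43 on replicate 1 of day 20 and 7.58 on replicate 2. On day 20 replicate 2 no kidney marker of either list other than Miox was more than 2-fold above day 0. Whether fat genes and kidney markers came from the same tissue was not tested, and no array of host fat or host kidney was used. Of 5 adrenal cortex genes, 1 was called higher on both days. This was Star, which carries cholesterol into mitochondria in all steroid-making cells, with a rise of 2.09 ± 0.32 on day 10 (adjusted p = 0.0275) and 2.73 ± 0.32 on day 20 (adjusted p = 0.00914). It was not called on day 10 when any single array of day 0 or day 10 was left out, nor on day 20 without day 0 replicate 2. Cyp11b1 and Cyp11b2, the enzymes that define the adrenal cortex, read at most 4.73 and 4.21 on any array.

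Y-linked genes, which XX donor cells lack and the XY host carries, passed for 3 of 4 genes on day 20 and for none on day 10 in limma, where 3 of 4 had an unadjusted p below 0.05. The 4 genes summed to 590 on day 4, 328 on day 7, 220 and 182 on day 10, 200 on day 15, 1102 on replicate 1 of day 20 and 264 on replicate 2, against 45.7 and 61.0 on day 0, where none exceeded the 25th percentile of all values. Macrophage genes were also high in the grafts, with 9 of 11 called higher on day 20 (5 without day 20 replicate 1) and 6 of 11 on day 10. Their sum was 34081 on day 4, 26730 on day 7, 13840 and 16989 on day 10, 9626 on day 15, 32477 on replicate 1 of day 20 and 20873 on replicate 2, against 1790 and 2880 on day 0. The 10 endothelial genes summed to 4371 on replicate 1 of day 20 and 4833 on replicate 2, between the day 0 values of 3617 and 5068. Among them only Vwf was called on either day, higher by 2.65 ± 0.46 on day 10 and 2.23 ± 0.46 on day 20. The 6 gonadal somatic genes, which include Gata4 and Nr5a1, summed to 6815 on replicate 1 of day 20 and 15107 on replicate 2, against 24410 and 22187 on day 0. Of these 6 genes, 2 were called lower on day 10 and 4 on day 20, and none higher. Foxl2 went the other way, above the day 0 mean on every graft array, by 0.20 on replicate 1 of day 20 and 1.47 on replicate 2. Of the 7 granulosa genes, 4 were called higher on day 10, or 1 without either day 10 array, and 5 on day 20. The part of kidney, host and immune cells in the levels of the fat genes was not tested.

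**Figure D4:**
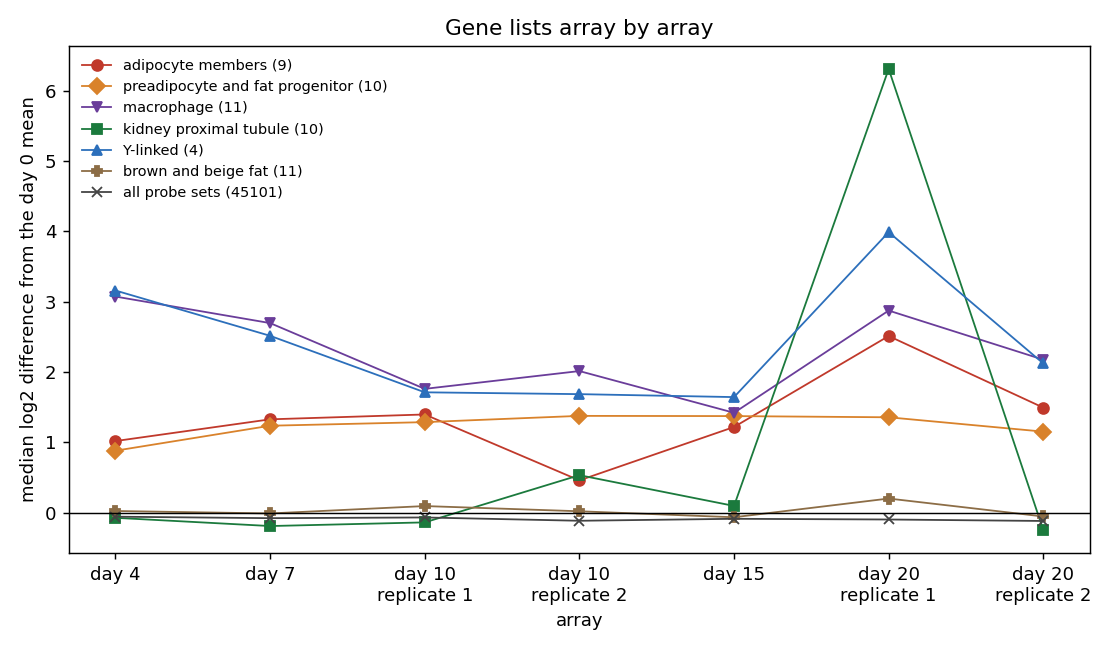
Median log2 difference from the day 0 mean (vertical axis) over the genes of each list, for the 7 graft arrays (horizontal axis), with the number of genes in the legend. Proximal tubule genes reach a median of 6.31 on replicate 1 of day 20 and -0.25 on replicate 2, where the adipocyte genes have 2.51 and 1.49.

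The genes whose profile over the arrays was most like that of Adipoq were sought among 2254 genes that ranged over at least 2 log2 units. Over 9 arrays these were Sema4a (Pearson r = 0.989), Napsa (0.986), Clic5 (0.982), Slc1a1 (0.978) and Cndp2 (0.978). All 5 had their highest value on day 20 replicate 1, Napsa for example with 11.74 there and 7.44 on day 20 replicate 2, against 5.72 and 6.06 on day 0. These coefficients describe 9 arrays that share normalization and, for a large part, the single highest array. Over the 8 arrays without day 20 replicate 1, none of the 5 remained among the 5 most alike of 1603 genes. Those were Cpxm2 (0.963), Iglv1 (0.958), Ighm (0.949), Abcb1b (0.939) and Jchain (0.937), of which Ighm, Iglv1 and Jchain encode parts of antibodies. Among the adipocyte genes, Cfd had an r with Adipoq of 0.97 over 9 arrays and 0.99 over 8, Fabp4 of 0.92 and 0.80, Lpl of 0.58 and 0.84, Pparg of 0.40 and 0.74, Cidec of 0.95 and 0.57, Lep of 0.81 and 0.0, Retn of 0.91 and -0.01, and Ucp1 of -0.35 and -0.55. Over 9 arrays the 10 proximal tubule genes lay between 0.76 (Miox) and 0.92 (Slc5a2), a range that takes in Fabp4, Retn and Lep. The 4 Y-linked genes then lay between 0.62 (Kdm5d) and 0.89 (Uty), and the 11 macrophage genes between 0.07 (Itgam) and 0.66 (Csf1r). Over the 8 arrays without day 20 replicate 1, the proximal tubule genes lay between -0.80 (Slc22a8) and 0.43 (Miox). The Y-linked genes lay between 0.62 (Uty) and 0.78 (Ddx3y) there, and the macrophage genes between 0.19 (Itgam) and 0.78 (Lyz2).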

How the data were processed

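RNA of ungrafted ovaries and of grafts was measured on 9 arrays. The authors deposited log2 intensities of 45101 probe sets, made with the robust multiarray algorithm (RMA), which subtracts background, normalizes by quantiles and summarises probes; the sources used here do not give its version. The labels name 2 alternative labelling kits without saying which served for each array. In the deposited values, 33.2% of probe sets carried an identical value on 2 or more arrays. Symbols came from the platform annotation (34958 probe sets with 1 symbol, 932 with several, 9211 not listed) and, for 413 of those not listed, from the study's tables.

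Samples were grouped by day. limma 3.58.1 (lmFit, eBayes) in R 4.3.3 fitted 1 mean per day over all arrays and all probe sets, with no filter, 3 residual and 2.69 prior degrees of freedom, and Benjamini-Hochberg adjustment; the procedure was tested on simulated data. Tables and plots used numpy 2.4.6, pandas 2.3.3 and matplotlib 3.10.9 under Python 3.11.15. The labels call the duplicates biological, and the counts of hosts in the study's tables are for histology and RT-qPCR, so whether duplicate arrays had separate hosts is not known here, and p-values measure the spread between these arrays, which may be technical. Precision is limited by the number of arrays. Members, lists and tests were chosen with earlier results of these data known. The genes named were all members, for each other list up to 4 genes that passed on day 20, taken by size of change, the opening pair of genes of a list where fewer than 2 passed, and the 5 genes most like Adipoq with and without day 20 replicate 1. Alternatives covered normalization, centring, filters, weights, the intensity trend, a replicate block, the fold threshold, other probe sets and each array left out. Published fold changes were not used.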

Additional observations from a re-analysis of the deposited data

How the results depend on the processing

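The medians over the adipocyte genes on days 4, 7 and 15 and between the day 20 arrays moved by less than the median spread of the duplicates of days 0 and 10 (0.349), day 20 not included, under quantile normalization, median centring, a floor at the 25th percentile and other probe sets. The number of genes called, 2 of 9 on each day, ranged between 0 and 3 on day 10 and between 1 and 7 on day 20 when single arrays were left out, and the probe sets called overall ranged between 84 and 2737 and between 911 and 6319, beside 1892 and 3433. A lone array was assumed to vary like the other days. With the floor, 1 gene was called on day 10 (451 probe sets overall) and 1 on day 20 (944). With only the arrays of the days compared, 1 was called on day 20 (1491 overall). The intensity trend and the restriction to brighter probe sets each called 4 on day 20. Array weights gave 3114 probe sets on day 10. The cause of these shifts was not tested, beyond the smaller number of samples where arrays were left out. With a replicate block on days 0, 10 and 20, 2 genes (1405 probe sets) were called on day 10 and 3 (2994) on day 20. Differences between duplicates, taken over all probe sets, correlated at -0.158, 0.154 and -0.128 between days. Such a correlation cannot settle whether duplicates of the same number shared a batch, and the main fit did not pair them. Among uncalled day 10 changes, Lep turned to -0.016 under median centring and ranged between -0.16 and 0.29 with single arrays left out, Cidec turned to 0.05 under quantile normalization and ranged between -0.17 and 0.12, and Fabp4 to -0.17 with its dimmest probe set. Of the 5 genes most like Adipoq, 1 was among the 5 by Spearman's rho, and 0 without day 20 replicate 1.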
